A study of Homo sapiens with 6 samples.

Results

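Plasma protease inhibitor mRNAs were followed in HepG2, a human hepatocellular carcinoma line, after RNA immunoprecipitation (RIP) of PABPC1 and PABPC4. The group was defined by gene name, with earlier results of these data known. It holds alpha-2-macroglobulin (A2M), the inter-alpha-trypsin inhibitor heavy chains (ITIH1, ITIH2, ITIH3 and ITIH4), AMBP, the serpins SERPINA1, SERPINA3 and SERPINC1, and SPINK1. These are 10 of the 58302 genes listed in both deposited tables. Per the labels, the PABPC1 antibody was used on cells overexpressing PABPC1 and the PABPC4 antibody on cells overexpressing PABPC4, with 2 libraries each, and 1 rabbit IgG library was made from each of these cell populations. Cells were grown in DMEM with fetal bovine serum, and the libraries were primed with random primers. No library of input RNA was analysed here, so a level in a RIP cannot be divided by the level of the mRNA in the lysate. The antibody and the overexpressed protein change together between the RIPs and cannot be told apart.

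PABPC1 and PABPC4 are cytoplasmic proteins that bind the poly(A) tail of mRNAs and act in their translation and stability. The mRNAs described here encode protease inhibitors, or parts of inhibitor complexes, that hepatocytes release into plasma. SPINK1 is the exception, best known from the pancreas and from tumours. Serpins trap a protease through a covalent bond and a change of shape. A2M encloses proteases of several classes after they cut its bait region. The bikunin part of the AMBP precursor is joined to ITIH heavy chains and carried to the matrix, and in that complex bikunin inhibits proteases.

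Of the 10 mRNAs, 8 had reads and 5 carried almost all of them. A2M, SERPINA1, ITIH2, ITIH3 and AMBP had 1456 of the 1460 member reads with PABPC1, 6201 of 6230 with PABPC4 and 372 of 373 with IgG. These are sums over both libraries of a group, recovered as whole reads from the deposited folds and p-values. SERPINC1 (chr1:173903800-173917327), which encodes antithrombin, had 2 reads with PABPC1, 15 with PABPC4 and 0 with IgG. SERPINA3, which encodes antichymotrypsin, had 1, 9 and 0 reads, and ITIH1 had 1, 5 and 1. ITIH4 and SPINK1 (chr5:147824582-147839196, minus strand) had 0 of 2485551 reads. By a floor of 3 reads this allows up to 1.21 CPM of counted reads over all libraries, where CPM is reads per 1000000 library reads. The gene ITIH4-AS1 overlaps ITIH4 and had 0 reads in each group. Whether counting used the strand is not stated, so this bound does not cover reads that counting may have left out in an overlap.

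Neighbouring relatives in the genome stood far apart in read number. SERPINA1 (chr14:94376747-94390635 in GRCh38.p14, minus strand) and SERPINA3 (chr14:94612391-94624053, plus strand) lie in the same serpin cluster, with 1936 and 9 PABPC4 reads. ITIH1 (chr3:52777599-52792068, plus strand), ITIH3 (chr3:52794796-52808797, plus strand) and ITIH4 (chr3:52812962-52830672, minus strand) lie side by side, with 5, 583 and 0 PABPC4 reads. These are counted reads after immunoprecipitation, without input RNA, and not levels of transcription. For ITIH4 the overlap with ITIH4-AS1 also limits what the count can show. The 250 bases before a RefSeq start of a read and an unread or hardly read gene of each cluster are given here 5′ to 3′ on the gene's strand, to show the promoters of genes that differ so in reads. SERPINA1 is shown at its downstream start, the one used in hepatocytes. The windows are chr14:94388603-94388852 for SERPINA1, chr14:94612141-94612390 for SERPINA3, chr3:52794546-52794795 for ITIH3 and chr3:52830673-52830922 for ITIH4. Capitals mark matches, on either strand, to the liver factor HNF1 half-site GTTAAT, to the STAT motif TTCNNNGAA or to the C/EBP motif TTGNNCAA.
SERPINA1: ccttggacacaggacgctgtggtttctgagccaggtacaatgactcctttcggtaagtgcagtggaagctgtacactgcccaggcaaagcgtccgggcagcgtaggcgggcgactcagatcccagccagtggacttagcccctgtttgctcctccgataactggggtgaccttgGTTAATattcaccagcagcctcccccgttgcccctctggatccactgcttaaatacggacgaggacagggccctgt
SERPINA3: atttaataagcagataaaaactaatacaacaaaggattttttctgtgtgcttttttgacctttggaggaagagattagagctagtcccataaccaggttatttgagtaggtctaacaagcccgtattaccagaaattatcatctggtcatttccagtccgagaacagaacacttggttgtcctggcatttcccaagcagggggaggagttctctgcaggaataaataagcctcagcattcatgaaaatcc
ITIH3: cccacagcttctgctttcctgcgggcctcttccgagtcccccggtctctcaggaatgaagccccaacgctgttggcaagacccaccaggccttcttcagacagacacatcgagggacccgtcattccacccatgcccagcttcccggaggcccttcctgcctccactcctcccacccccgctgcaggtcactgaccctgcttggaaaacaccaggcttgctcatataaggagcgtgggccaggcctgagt
ITIH4: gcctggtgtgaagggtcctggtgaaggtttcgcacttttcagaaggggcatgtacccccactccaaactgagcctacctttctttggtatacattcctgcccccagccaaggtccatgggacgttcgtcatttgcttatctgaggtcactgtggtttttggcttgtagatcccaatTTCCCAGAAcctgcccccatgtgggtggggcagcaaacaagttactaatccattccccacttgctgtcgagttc
The SERPINA1 window held 1 HNF1 half-site, beginning 76 bases before the start, and the ITIH4 window held 1 STAT match, beginning 74 bases before it. Neither motif was found in the SERPINA3 or ITIH3 window, and none of the 4 windows held the C/EBP letters. Over 35116 promoter windows of this length in the same RefSeq table, 6.23% held the half-site, 6.57% the STAT motif and 4.9% the C/EBP motif. Windows were found for 7 of the 10 genes. Of the windows not shown, that of AMBP held 1 C/EBP match and that of SPINK1 held 1 STAT match. The upstream SERPINA1 window and those of ITIH1 held no match. All these matches are descriptions of letters, not of binding.

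The libraries were shallow and differed in make-up. Totals were 133030 and 94235 reads in the IgG libraries, 289217 and 277552 with PABPC1, and 850190 and 841327 with PABPC4. Reads on nuclear-encoded genes were 39.7% of IgG reads, 56.0% of PABPC1 reads and 78.2% of PABPC4 reads. With the median of gene ratios as the measure, the median gene was 1.31-fold higher with PABPC1 than with IgG, 1.77-fold higher with PABPC4 than with IgG and 1.36-fold higher with PABPC4 than with PABPC1 on library totals (0.38, 0.83 and 0.44 on the log2 scale). The folds of the well-read members are given against this shift as well. Hepatocyte markers were present: all 12 had reads, with 4110 CPM summed in IgG, 6763 in PABPC1 and 8852 in PABPC4, although TTR had 2, 3 and 0 reads with PABPC1, PABPC4 and IgG. Markers of blood cells were also read. Their 13 genes summed to 3766 and 3873 CPM in the IgG libraries, 1369 and 1477 with PABPC1 and 769 and 609 with PABPC4, led by the beta-globin gene HBB, with HBD at 0 in IgG. Of the 13, 4 were lower with PABPC1 and 10 lower with PABPC4 in the calls of the authors' deposited tables, against 0.194% and 0.9% of all genes tested, and 4 of the 4 and 5 of the 10 were still called with each library left out in turn. Their part in the values of the inhibitor mRNAs was not tested. PABPC1 mRNA had 595 and 634 CPM in the PABPC1 libraries, 591 and 676 in the PABPC4 libraries and 286 and 318 in IgG. PABPC4 mRNA had 111 and 155 CPM in the PABPC1 libraries, 162 and 183 in the PABPC4 libraries and 75.2 and 42.5 in IgG. A level after immunoprecipitation is not a check of the labelled overexpression.

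The level of each mRNA per length was compared within a group in RPKM (CPM per kilobase), using the length that the deposited fold implies. With PABPC4, ITIH2 stood at 301 and 304 RPKM, SERPINA1 at 234 and 233, A2M at 133 and 161, AMBP at 106 and 108, and ITIH3 at 56.4 and 60.0. No neighbours in this order overlapped between libraries. ITIH2 was 51st and SERPINA1 63rd of 15093 genes ranked. With IgG the order changed: SERPINA1 led at 112 and 139 RPKM, A2M followed at 90.7 and 79.8, and ITIH2, at 100.1 and 62.8, overlapped A2M. AMBP, at 55.3 and 57.2 RPKM in IgG, lay just under ITIH2, and ITIH3 was lowest of the 5 at 17.8 and 8.96. SERPINC1, SERPINA3 and ITIH1 had mean levels of 5.02, 1.06 and 0.65 RPKM with PABPC4.

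The first comparison asks which of these mRNAs came down with PABPC1 more than with IgG. In the authors' deposited table, ITIH3, ITIH2 and A2M were called higher at an adjusted p under 0.05, and none was called lower. These were 3 of the 8 members with a deposited p, against 1.34% of all 17565 genes tested (0.194% were called lower) and 28.6% of the 676 genes with at least 100 summed reads. The second comparison asks the same for PABPC4, against the same IgG libraries. In the authors' deposited table for PABPC4, 5 of the 8 members with a deposited p were called higher, the 5 well-read ones, against 5.54% of 21455 genes tested (0.9% were called lower) and 38.4% of the 3056 genes with at least 100 summed reads. These calls rest on summed reads and leave out the spread between libraries.

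**Figure D1:**
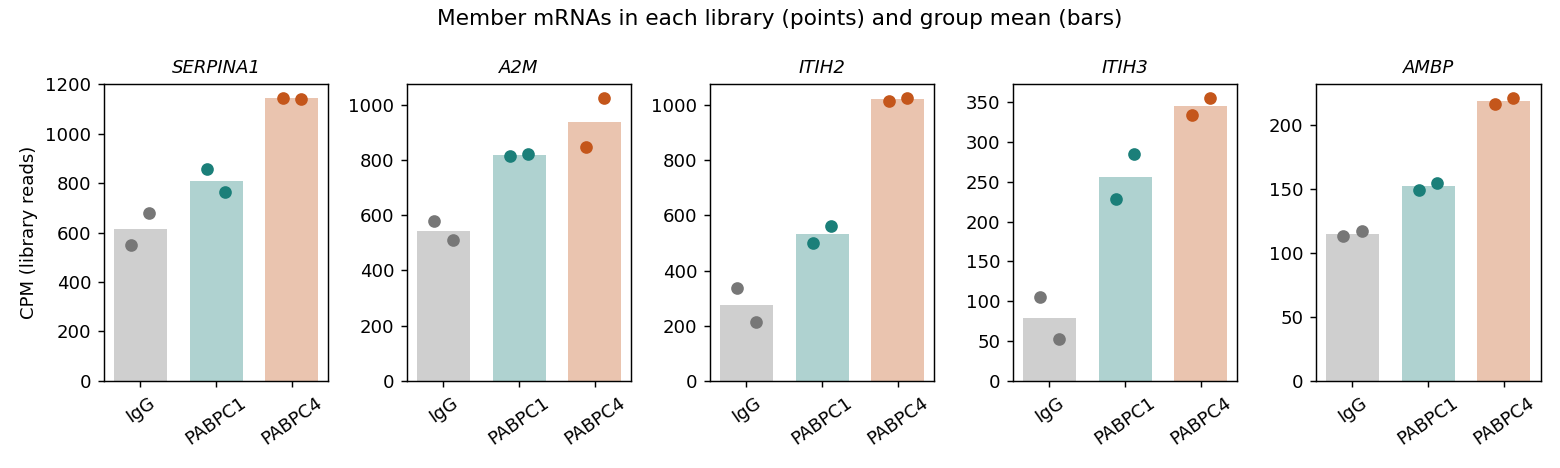
Level in CPM (vertical axis, from 0, a scale of its own in each panel) of the 5 well-read mRNAs, with a point for each of the 2 libraries of IgG, PABPC1 and PABPC4 and a bar for their mean. In all 5 panels both PABPC4 points lie above both PABPC1 points, which lie above both IgG points, with ITIH2 going from 212 to 338 in IgG to 1015 and 1027 with PABPC4.

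ITIH3 encodes heavy chain 3 of the inter-alpha-trypsin inhibitor family, one of the chains that bikunin carries. It had 105 and 53.1 CPM in the IgG libraries, 228 and 285 with PABPC1 and 334 and 355 with PABPC4. All RIP libraries were above both IgG libraries, which held only 14 and 5 reads of it. The authors' deposited table listed it 3.24-fold higher with PABPC1 (adjusted p = 0.00042), and the exact 95% interval of the ratio of summed reads was 1.89 to 5.23. With PABPC4 the authors' deposited table listed 4.35-fold (adjusted p = 6.5e-09; interval 2.62 to 6.90). Against the shift of the median gene these folds came to 2.48 with PABPC1 and 2.46 with PABPC4. In the deposited folds of 2156 genes with at least 10 IgG reads, 99.3% were lower than ITIH3 with PABPC1 and 97.6% with PABPC4. Without the IgG library of 94235 reads the PABPC1 fold was 2.43 and no longer called (adjusted p = 0.146, chi-square test).

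ITIH2 encodes heavy chain 2, which with heavy chain 1 and bikunin makes up inter-alpha-trypsin inhibitor. The gene lies at chr10:7703316-7749520. Its mRNA had 338 and 212 CPM in IgG, 501 and 562 with PABPC1 and 1015 and 1027 with PABPC4. The groups did not overlap, and the PABPC4 libraries were the closest to each other. The authors' deposited table listed it 1.93-fold higher with PABPC1 (adjusted p = 0.0010; interval 1.42 to 2.47). The authors' deposited table for PABPC4 listed 3.71-fold (adjusted p = 3.6e-24; interval 2.79 to 4.65). Over the median gene these were 1.48 and 2.09, with 86.6% and 94.5% of the 2156 genes below it. Without the same IgG library the PABPC1 fold was 1.57 (adjusted p = 0.352, chi-square test). Its partner heavy chain in the same complex, ITIH1, had 7 reads in all.

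AMBP encodes the precursor that is cut into alpha-1-microglobulin and bikunin, the part that inhibits proteases, from chr9:114060127-114078300 on the minus strand. It had 113 and 117 CPM in IgG, 149 and 155 with PABPC1 and 216 and 221 with PABPC4. The libraries of each group lay close together and the groups did not overlap. In the authors' deposited table its PABPC1 fold was 1.32 (adjusted p = 1; interval 0.847 to 2.14) and not called. Its PABPC4 fold in the authors' deposited table was 1.91 (adjusted p = 0.027; interval 1.28 to 2.97), which was lost when either IgG library was left out (1.87 and 1.94, adjusted p = 0.711 and 0.228). Over the median gene these folds were 1.01 and 1.08.

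**Figure D2:**
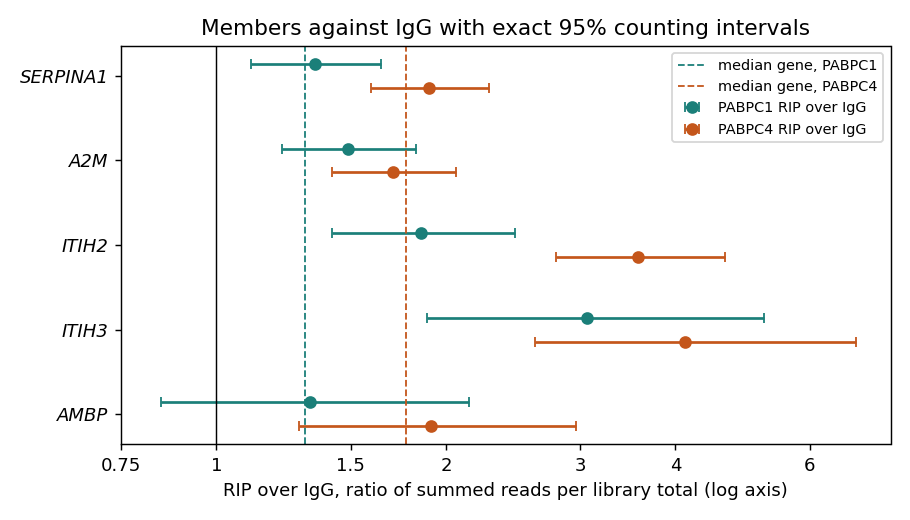
Ratio of summed reads per library total, RIP over IgG (horizontal log axis), of the 5 well-read mRNAs with exact 95% counting intervals for PABPC1 (green) and PABPC4 (orange); the solid line marks 1 and the dashed lines the median gene at 1.31 and 1.77. The intervals of ITIH2 and ITIH3 lie wholly to the right of the dashed line of their antibody, while those of SERPINA1, A2M and AMBP cross it.

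A2M encodes the broad protease trap of plasma. It had 579 and 509 CPM in IgG, 816 and 822 with PABPC1 and 849 and 1026 with PABPC4. The PABPC4 libraries differed more from each other than the lower of them did from PABPC1. The authors' deposited table listed it 1.51-fold higher with PABPC1 (adjusted p = 0.0098; interval 1.22 to 1.83), and this call was lost without either IgG library (1.61 and 1.41, adjusted p = 0.283 and 0.352). The authors' deposited table listed 1.72-fold with PABPC4 (adjusted p = 5.8e-07; interval 1.42 to 2.06). Over the median gene these folds were 1.15 and 0.972, and 46.5% of the 2156 genes had a lower PABPC4 fold. A2M is also made outside hepatocytes, and of the 9 fibroblast and endothelial markers 2 were lower with PABPC1 and 4 lower with PABPC4 in the authors' deposited tables, against 0.194% and 0.9% of all genes tested. With each library left out in turn, 0 of these 2 and 2 of these 4 were still called. These markers summed to 278 and 212 CPM in IgG, 76.1 and 61.3 with PABPC1 and 41.2 and 28.5 with PABPC4, and their part in the A2M values was not tested. The genes A2M-AS1 and KLRG1 overlap A2M (chr12:9067708-9116229) and had at most 2 reads in any group. It is not stated whether counting used the strand.

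SERPINA1 encodes alpha-1-antitrypsin, the main plasma inhibitor of neutrophil elastase. It had 549 and 679 CPM in IgG, 858 and 764 with PABPC1 and 1146 and 1143 with PABPC4. The groups did not overlap, though the upper IgG library was near the lower PABPC1 library. Its PABPC1 fold in the authors' deposited table was 1.32 (adjusted p = 0.121; interval 1.11 to 1.64), which was not called. Its PABPC4 fold in the authors' deposited table was 1.86 (adjusted p = 3.0e-11; interval 1.60 to 2.28). Over the median gene these were 1.01 and 1.05, with 52.5% and 53.6% of the 2156 genes below it. For the other serpins no fold can be given: with 0 IgG reads, SERPINC1 and SERPINA3 do not exceed a floor of 3 IgG reads once depth is counted, and their listed folds rest on the small amount added to the IgG mean.

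**Figure D3:**
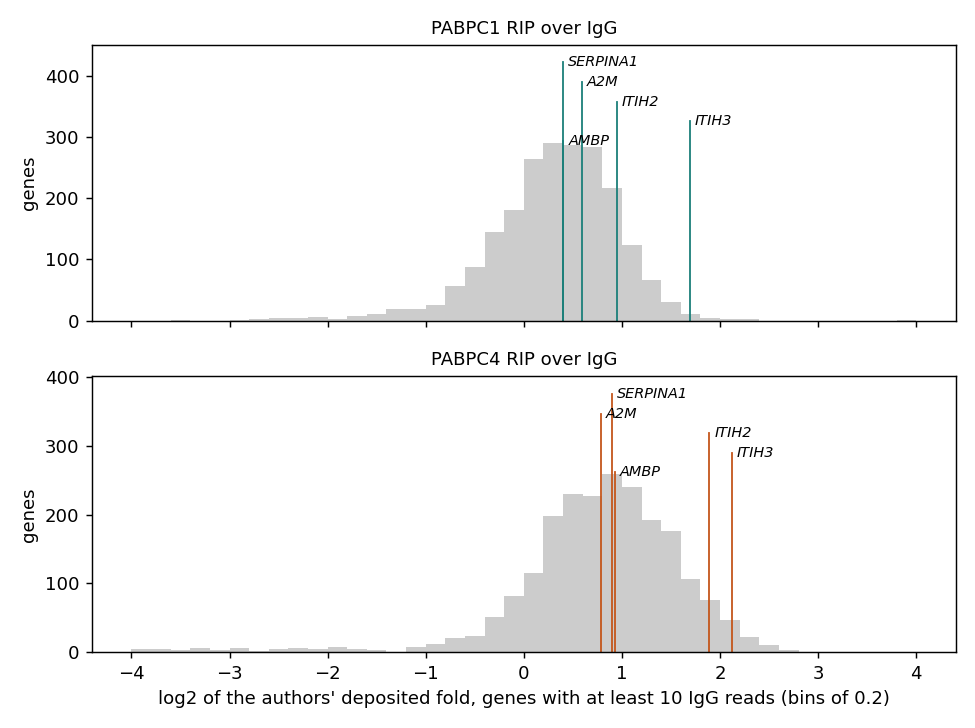
Histograms of log2 of the authors' deposited fold for the 2156 genes with at least 10 IgG reads (horizontal axis in bins of 0.2, vertical axis in genes), with PABPC1 above and PABPC4 below and vertical lines at the 5 well-read mRNAs. ITIH3 and ITIH2 lie on the right flank in both panels, and SERPINA1, AMBP and A2M lie near the middle, where the median fold is 1.28 with PABPC1 and 1.79 with PABPC4.

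With the median gene as the zero point and the spread between libraries as the error, fewer of these differences stood. The fit was limma voom with median-of-ratios scaling over the 7977 genes that had 10 or more reads in 2 or more libraries. With PABPC4, limma called ITIH2 (log2 difference 1.04 ± 0.21 SE, adjusted p = 0.00092) and ITIH3 (1.24 ± 0.35 SE, adjusted p = 0.030) higher than IgG, against 2.43% of genes fitted. With PABPC1, limma called 0 of the 5, against 0.552% of genes fitted. ITIH3 had a log2 difference of 1.26 ± 0.36 SE (limma adjusted p = 0.085) and ITIH2 of 0.55 ± 0.22 SE (limma adjusted p = 0.273), and these 2 had an unadjusted p under 0.05. SERPINA1, A2M and AMBP had log2 differences between -0.06 and 0.19 in both comparisons, with a limma adjusted p of 0.709 or more. The chi-square test on summed reads with this scaling also called ITIH2 and ITIH3 with PABPC4 and 0 members with PABPC1, where it called 0.783% and 0.205% of all genes higher. With totals over nuclear-encoded genes it called ITIH2 with PABPC4 and 0 members with PABPC1, against 0.514% and 0.143% of genes. Limma on library totals called all 5 higher with PABPC4 (28.6% of genes fitted) and ITIH2 and ITIH3 with PABPC1 (4.59%).

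No scaling enters the make-up of the member reads, in which ITIH2 took a larger share with PABPC4 than in any other library. ITIH2 gave 20.1% and 13.5% of the reads of the 5 mRNAs in the IgG libraries, 19.6% and 21.7% with PABPC1 and 28.5% and 27.2% with PABPC4. ITIH3 gave 6.25% and 3.38% in IgG, 8.94% and 11% with PABPC1 and 9.38% and 9.42% with PABPC4. A2M had a smaller share with PABPC4, at 23.9% and 27.2%, than in the other libraries, with 34.4% and 32.4% in IgG and 32.0% and 31.8% with PABPC1. For each A2M read there were 0.584 and 0.417 ITIH2 reads in IgG, 0.614 and 0.684 with PABPC1 and 1.20 and 1.00 with PABPC4. SERPINA1 stayed between 29.5% and 33.6% in all libraries but the shallower IgG library, at 43.2%.

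The third comparison sets PABPC4 directly against PABPC1. ITIH2 was the 1 member of the 5 fitted that passed the test, against 2.34% of 7977 genes called higher and 2.07% called lower. On library totals, where 13.8% of genes were called higher, SERPINA1 passed as well. ITIH2 was there 1.92-fold higher with PABPC4 (exact 95% interval 1.70 to 2.18), and the 4 pairs of libraries gave 1.81 to 2.05. Relative to the median gene, limma gave 1.41-fold, a log2 difference of 0.50 ± 0.11 SE (95% interval 0.28 to 0.72, adjusted p = 0.0035), with 82.2% of genes fitted below it. Its ratio was above the 1.36 of the median gene, taken over both libraries of each group, in all 4 pairs of libraries. These pairs reuse 2 libraries of each antibody and are not independent. With either PABPC1 library left out, the fold was 1.39 or 1.43 and not called (limma adjusted p = 0.644 and 0.534). Limma then called 15 or 12 genes in all, against 352 with every library, and the single PABPC1 library was assumed to vary like the other groups.

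The other 4 did not pass. A2M had 3.42 PABPC4 reads per PABPC1 read, the lowest of the 5, against 5.74 for ITIH2. Its ratio on library totals was 1.15 (interval 1.03 to 1.27), and the limma log2 difference from the median gene was -0.26 ± 0.10 SE (95% interval -0.46 to -0.05, adjusted p = 0.172). Without the PABPC4 library of 841327 reads, A2M was called lower, at 0.767-fold (limma adjusted p = 0.0018). ITIH3 had a log2 difference of -0.02 (95% interval -0.33 to 0.30, limma adjusted p = 0.976). SERPINA1 had 0.06 (-0.13 to 0.25, limma adjusted p = 0.818) and AMBP 0.07 (-0.30 to 0.45, limma adjusted p = 0.899). For AMBP, the least read of the 5, the interval allows a log2 difference of up to 0.45. The library-total ratio of ITIH2 did not overlap in its interval with those of A2M, ITIH3 (1.12 to 1.63) or SERPINA1 (1.27 to 1.56), and did overlap with that of AMBP (1.14 to 1.85). These intervals cover counting error only.

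**Figure D4:**
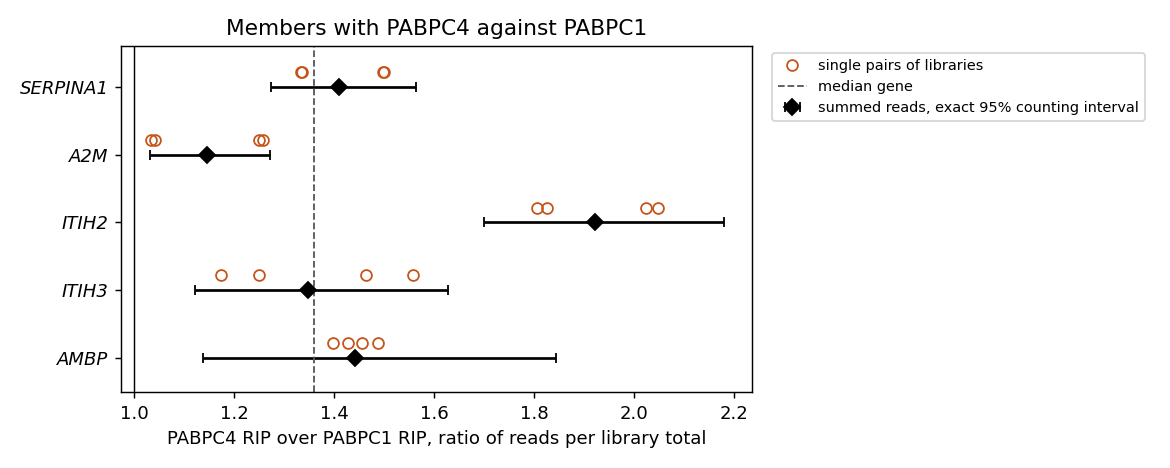
Ratio of reads per library total, PABPC4 RIP over PABPC1 RIP (horizontal axis), of the 5 well-read mRNAs: diamonds give summed reads with exact 95% counting intervals, open circles the 4 pairs of libraries, and the dashed line the median gene at 1.36. ITIH2, at 1.92, lies to the right of that line in all pairs, and A2M, at 1.15, lies to its left in all pairs.

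A list of 30 genes held other secreted inhibitors with serpins and further relatives, not all of which are secreted or inhibit proteases. By the authors' deposited tables, 4 of the 27 with a p-value rose and 1 fell with PABPC4. With PABPC1, 2 of 26 rose. Over all genes tested 5.54% rose and 0.9% fell with PABPC4, and 1.34% rose with PABPC1. Of genes with at least 100 summed reads, 38.4% rose with PABPC4 and 28.6% with PABPC1. With each library left out in turn, 1 of the 4, TFPI, and 0 of the 2 were still called. SERPINF1 was lost without either IgG library or the PABPC4 library of 841327 reads, and AHSG without the IgG library of 133030 reads. TFPI, the inhibitor of the tissue factor pathway, was listed in the authors' deposited tables at 1.96-fold with PABPC1 (adjusted p = 0.00095) and at 3.59-fold with PABPC4 (adjusted p = 6.3e-21). It was 1.35-fold higher with PABPC4 than with PABPC1 relative to the median gene (limma adjusted p = 0.015), a call lost without either PABPC1 library (limma adjusted p = 0.634 and 0.610). Its PABPC1 call against IgG was lost without either IgG library. SERPIND1, heparin cofactor II, was listed 2.34-fold and 2.87-fold higher in the authors' deposited tables (adjusted p = 0.042 and 0.00020), and both calls were lost without the IgG library of 133030 reads (1.66 and 2.05). The PABPC1 call was lost as well without the other IgG library (3.91) or the PABPC1 library of 277552 reads (2.21), and the PABPC4 fold was 4.81 without that other IgG library. The lower gene, SERPING1, had 0 PABPC4 reads and 3 IgG reads. A further list of 10 genes held other serpins, cystatins and the calpain inhibitor calpastatin (CAST). By the authors' deposited tables, 1 of 9 was higher with PABPC1 and 1 of 7 with PABPC4, in both cases CAST, and no serpin or cystatin of that list was called. CAST was 2.51-fold higher with PABPC1 (adjusted p = 0.0099) and 3.63-fold with PABPC4 (adjusted p = 1.3e-07) in the authors' deposited tables. The PABPC1 call was lost without either IgG library or the PABPC1 library of 277552 reads.

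Of 32 proteases of liver and plasma, the kind that such inhibitors act on, 25 had reads. With PABPC1 0 of 22 were called higher, and with PABPC4 4 of 23, by the authors' deposited tables, namely the prothrombin gene F2 (2.96-fold), F10 (2.64-fold), PROC (2.38-fold) and CFI (3.67-fold), with adjusted p of 0.014, 0.032, 0.0070 and 0.0053. These counts stand against 1.34% and 5.54% of all genes tested, and 28.6% and 38.4% of those with at least 100 summed reads. Each of these 4 calls was lost without either IgG library. Directly, CFI was 2.64-fold higher with PABPC4 than with PABPC1 relative to the median gene (limma adjusted p = 0.0090). It was the 1 gene called higher of 14 proteases fitted, against 2.34% of all genes fitted, and the call was lost without either PABPC1 library. Of the 12 genes for clearance receptors and matrix partners, LRP1, the receptor that takes up complexes of A2M and serpins with proteases, was called with both antibodies in the authors' deposited tables (2.44-fold and 2.26-fold, adjusted p = 0.0059 and 0.0026), and each of those calls was lost without either IgG library, that of PABPC1 also without its library of 277552 reads. Directly, LRP1 was lower with PABPC4 than with PABPC1 relative to the median gene (0.68-fold, limma adjusted p = 0.037), a call lost without either PABPC1 library or the PABPC4 library of 850190 reads. With PABPC4 LRPAP1 and ASGR2 of that list were also called higher and CD44, with 6 IgG reads, lower. Each was lost with 2 or 3 of the libraries left out in turn. In all, 3 of the 9 genes with a p-value were higher and 1 lower with PABPC4, and 1 of 11 higher with PABPC1. Over all genes tested, 5.54% were higher and 0.9% lower with PABPC4, and 1.34% higher with PABPC1. Of those with at least 100 summed reads, 38.4% and 28.6% were higher.

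A list of 20 genes held acute phase mRNAs, the class that inflammation raises in liver, with genes of the cytokine signalling above them (IL6R, IL6ST, STAT3, SOCS3 and CEBPB). Of these, 6 of 15 were higher with PABPC4 and 0 of 14 with PABPC1 in the authors' deposited tables. Of all genes tested, 5.54% were called higher with PABPC4 and 1.34% with PABPC1. Of those with at least 100 summed reads, 38.4% and 28.6% were called higher, but the 20 genes listed were not limited to that depth. Limma relative to the median gene called 0 of 13 with either antibody, against 2.43% of genes fitted with PABPC4 and 0.552% with PABPC1. C3, the central complement component, was at 2.10-fold (adjusted p = 3.4e-10, the authors' deposited table) and was the 1 of these 6 still called with each library left out in turn. In the direct fit against PABPC1, limma called C3 (1.33-fold) and STAT3 (2.38-fold) higher with PABPC4 relative to the median gene. These 2 of the 13 fitted stand beside 2.34% of all genes fitted, and both calls were lost without either PABPC1 library. Another list held 20 mRNAs of the quality control of secreted glycoproteins in the endoplasmic reticulum. Of these, 10 were higher with PABPC4 and 4 with PABPC1 in the authors' deposited tables. The shares beside them are the same, 5.54% and 1.34% of all genes tested and 38.4% and 28.6% at the stated depth. With each library left out in turn 6 of the 10 and 1 of the 4 were still called. Limma relative to the median gene called 3 and 0 of 18, against the same 2.43% and 0.552% of genes fitted. HSP90B1, an abundant chaperone there, was listed in the authors' deposited table at 3.78-fold with PABPC4 (adjusted p = 3.0e-116), and HSPA5, the chaperone BiP, at 5.30-fold (adjusted p = 3.4e-22). Directly against PABPC1 they were 1.75-fold and 1.78-fold higher relative to the median gene (limma adjusted p = 5.3e-13 and 4.5e-05). Without either PABPC1 library HSPA5 was not called (limma adjusted p = 0.290 and 0.185), nor HSP90B1 without that of 277552 reads (0.071). Relative to the median gene and with the spread between libraries, limma called TFPI (log2 difference 0.99, adjusted p = 0.0019), HSPA5 (1.53, adjusted p = 0.00013) and HSP90B1 (1.08, adjusted p = 3.1e-09) higher with PABPC4 than with IgG. It did not call SERPIND1, CAST, F2, F10, PROC, CFI, LRP1 or C3, with CAST closest (1.03, limma adjusted p = 0.066).

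In the direct fit the median log2 difference was 0.06 over the 5 members fitted. It was -0.13 over 14 genes of the list of other secreted inhibitors and relatives, and -0.11 over 14 proteases. The median was -0.35 over 7 clearance and partner genes, 0.24 over 13 acute phase and signalling genes and 0.07 over 18 quality control mRNAs. It was 0.10 over the 5 genes fitted of the list with CAST, -0.07 over 11 hepatocyte markers, -1.61 over 8 blood markers and 0.00 over all genes fitted.

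Summed over the 10 genes, the inhibitor reads were 1.57-fold higher with PABPC1 and 2.24-fold higher with PABPC4 than with IgG. Among 1846 genes with at least 200 summed reads, the 5 nearest to this pair of folds by Euclidean distance on the log2 scale were HELLS, BTAF1, SLC38A2, NOLC1 and NAA50. HELLS, the nearest, had 1.57-fold and 2.23-fold, from 82, 349 and 21 reads with PABPC1, PABPC4 and IgG.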

How the data were processed

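The authors deposited 2 tables, each a fold (a linear ratio of RIP over IgG, per the file headers), a p-value and a Benjamini-Hochberg adjusted p for 58302 genes; 0 columns of single libraries were left unused. Tools named in the submitters' processing notes, with no role, are featureCounts 2.0.1, STAR 2.7.10a and Bowtie2 2.4.1, and GRCh38 and hg38 are named as builds. The deposited p-value is that of a Yates-corrected chi-square test on reads summed over libraries, and the deposited fold divides mean levels after 0.005 RPKM was added to the IgG mean. From these, whole reads were recovered for 22603 of 22607 genes with a read, and split by library for 15093; both tables gave the same IgG reads in 15356 of 15356 genes solved separately. The implied lengths were whole numbers of bases within 4.6e-06. Libraries are named by their total, since they could not be matched to replicate numbers, nor the IgG libraries to the cell populations. The IgG libraries, from different populations, were fitted as replicates, and which population remains when one is left out is not known. Nothing in the labels says that libraries came from separate cultures, so a p-value that uses the spread between libraries may measure technical spread only.

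Calls against IgG are the deposited adjusted p under 0.05. The direct comparison used limma 3.58.1 (voom) in R 4.3.3 on all 6 libraries in 3 groups, with 3 residual and 34.6 prior degrees of freedom. Exact 95% intervals came from SciPy 1.17.1 and cover counting error only. Steps were tested on simulated data. Alternatives were Fisher's exact test, other scalings and filters, limma in place of the chi-square test, and each library left out. Besides the members, genes named are at most 5 called genes a list, by adjusted p, and the 5 nearest in fold. The members and lists were chosen with earlier results of these data known. Promoters and coordinates come from RefSeq, GRCh38.p14.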

Additional observations from a re-analysis of the deposited data

Results flagged for a closer look

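ITIH2 differed between the antibodies in a test of the difference itself: it was 1.41-fold higher with PABPC4 than with PABPC1 relative to the median gene (limma adjusted p = 0.0035). Its ratio on library totals was 1.81 to 2.05 in the 4 pairs of libraries, which are not independent, above the 1.36 of the median gene. The call was lost without either PABPC1 library (limma adjusted p = 0.644 and 0.534).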

How the results depend on the processing

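Calls against IgG depended on the scaling. With PABPC1 the 3 members called higher became 0 with totals over nuclear-encoded genes, 0 with median-of-ratios scaling and 0 with limma voom at that scaling, which was chosen after seeing the data (2 with an unadjusted p under 0.05); limma on library totals kept 2, ITIH2 and ITIH3. With PABPC4 the 5 became 1 (ITIH2), 2 and 2 (ITIH2 and ITIH3), and limma on library totals called 5. All genes called higher and lower moved from 235 and 34 to 36 and 51 with median-of-ratios scaling and to 25 and 73 with nuclear totals for PABPC1, and from 1188 and 193 to 168 and 395 and to 110 and 437 for PABPC4. With Fisher's exact test, or with genes of at least 10 reads, 3 and 5 members were called. Leaving out each library gave 0 to 3 members for PABPC1 (0 without the IgG library of 94235 reads) and 4 to 5 for PABPC4.

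Directions turned for members near the median gene. With nuclear totals PABPC1 over IgG was 0.941 for AMBP and 0.955 for SERPINA1, and PABPC4 over IgG was 0.866 for A2M, 0.972 for AMBP and 0.965 for SERPINA1. With median-of-ratios scaling A2M was 0.961 with PABPC4, and with limma voom at that scaling A2M was 0.957 with PABPC4 and AMBP 0.991 with PABPC1. In the direct comparison library totals called 2 members (ITIH2 and SERPINA1; 1104 genes higher and 54 lower, against 187 and 165) and gave 1.14 for A2M and 1.35 for ITIH3, and the trimmed mean of M-values gave 1.10 for ITIH3. The other scalings, filters, tests and the fit on 4 libraries called ITIH2 alone. Leaving out each library gave 0 to 1 members called higher; ITIH3 was 1.06 and SERPINA1 0.939 without the PABPC1 library of 277552 reads, 0.926 and 1.15 without the other, and ITIH3 1.01 without the PABPC4 library of 850190 reads. The cause of these changes beyond the scaling itself was not tested. Adding no amount to the IgG mean kept every fold of the 5 members. Of the 165 tested values of single members under alternatives, 126 kept direction and call, 23 lost the call, 2 gained it and 14 turned. No paired analysis was possible because the recovered libraries carry no replicate numbers.

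The IgG depth limits the members: ITIH3 rests on 19 IgG reads and AMBP on 26, and SERPINA3, SERPINC1 and ITIH1 have 34 reads in all.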
